A study of Homo sapiens with 12 samples.

Results

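The cells described here over-expressed the long non-coding RNA SPARCLE and were compared with and without the DNA-damaging drug doxorubicin. The line is HCT116, grown from a human colon carcinoma and long established in culture. Over-expressing (OE) cells in medium with 1 µM doxorubicin for 48 h formed one group, and OE cells kept in regular medium (control) formed the other. Each group had 2 biological replicates, named a and b, so the comparison rests on 4 of the 12 libraries of the study, chosen by their titles. The other 8 libraries are wild-type (WT) and SPARCLE knockout (KO) HCT116 cells under the same treatments, again 2 per group, and served for the shared estimate of the spread and for comparing responses. The labels give neither the construct and promoter that drive SPARCLE, nor whether the OE cells are a clone or a pool, nor an empty-vector control. All groups were grown in DMEM with serum, and total RNA was sequenced with a stranded kit.

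Doxorubicin is an anthracycline that intercalates into DNA and traps topoisomerase II on it, which leaves double-strand breaks. Breaks activate the kinases ATM and ATR and, through them, the transcription factor p53, which HCT116 cells carry in wild-type form. p53 switches on arrest, repair and death genes, and its target p21 lets the DREAM complex silence cell cycle genes through the CHR element and CCAAT boxes of their promoters. Nucleic acids released by damage can set off interferon signalling, which acts through the interferon-stimulated response element. SPARCLE is transcribed from the MIR34B locus, a p53 target region, and the title of the study links it to cleavage of PARP-1, an enzyme that attaches ADP-ribose chains to proteins at DNA breaks.

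Levels are in TPM, a transcript abundance in which reads are scaled by gene length and library total. Differences are doxorubicin minus control on the scale log2(TPM + 1), which understates the change of genes below a few TPM, and are given ± the standard error (SE) of limma. A gene is said to have risen or fallen where limma's Benjamini-Hochberg adjusted p over 15256 genes was under 0.05. The reads recovered from the deposited values were 28894026 and 26410735 in the OE doxorubicin libraries and 12599392 and 18380251 in the OE control libraries. Small RNA genes, 351 in all, took 68.2 to 75.8% of the TPM of these libraries, so the TPM of every other gene moves with that share. The median gene of OE doxorubicin lay 0.25 log2 units above its mean over the 12 libraries in replicate a and at -0.32 in replicate b, against -0.06 and -0.26 in OE control. In bulk RNA, fewer cells expressing a gene and less RNA per cell cannot be told apart. How reads shared by near-identical genes were counted, and with which strand setting, is not given in the sources used here, so histones, LCE1 genes and small RNAs are uncertain.

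SPARCLE itself was less abundant with the drug. It is the row of gene MIR34BHG, on the plus strand of chromosome 11 from 111510602 to 111513888 (GRCh38). It had 13.73 and 13.48 TPM in OE doxorubicin, from 430 and 487 reads, against 26.54 and 27.34 TPM in OE control, from 384 and 622 reads. The 95% exact binomial intervals were 12.5 to 15.1 and 12.3 to 14.7 TPM with doxorubicin, and 23.9 to 29.3 and 25.2 to 29.6 TPM in control, for counting error only. SPARCLE fell by 0.94 ± 0.22 log2 units (limma adjusted p = 0.0102), and the 2 groups did not overlap. The call was lost with a pseudocount of 0.1 (adjusted p = 0.142), under a mean TPM filter of 5 (0.0501), and without OE control replicate a (0.0504) or b (0.075). The label of over-expression held in all 4 libraries, since WT and KO libraries had 0 to 4 reads.

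Doxorubicin changed the OE transcriptome widely. Of 15256 genes, 1895 were higher (12.4%) and 1615 lower (10.6%), and 2239 of them differed by at least 1 log2 unit. The median difference of all genes was 0.11, and the 2 groups did not overlap in 9337 genes (61.2%). Protein-coding genes made up most of the calls, with 1598 higher and 1370 lower of 12572. Of 1417 long non-coding RNAs, 206 rose and 121 fell, and of 692 pseudogenes 49 rose and 82 fell. Without the small RNA genes, 64.2% of the calls were higher (3857 higher and 2149 lower), against 54.0% as reported. With median-ratio scaling 2930 were higher and 3008 lower (49.3% higher), and by voom 2990 and 3019 (49.8%), so the majority of calls turned with the scaling. The higher and lower genes numbered 857 and 675 without OE control replicate a, and 346 and 598 without OE control replicate b.

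The largest rise was that of TP53I3, a p53 target that encodes a quinone oxidoreductase. TP53I3 had 420.1 and 142 TPM in OE doxorubicin, against 2.22 and 1.82 TPM in OE control, a difference of 6.35 ± 0.64 (limma adjusted p = 0.000108). KRT23, an epithelial keratin, had 235 and 179 TPM with doxorubicin, against 6.94 and 3.62 TPM in control (5.09 ± 0.42). The late cornified envelope gene LCE1F, normally a gene of the outer skin, had 307 and 113 reads with doxorubicin and 0 reads in both control libraries, which made it at least 38.2-fold higher against a floor of 3 reads per library. Further genes with large rises were ABCA12 (a lipid transporter of the skin barrier, 4.15), LY6D (a surface protein of squamous cells, 3.72), IFI27 (interferon-inducible, 3.66), FXYD3 (a regulator of the sodium pump, 3.58), TLCD1 (3.56), SAMD9 (interferon-inducible, 3.37), S100A2 (a calcium-binding p53 target, 3.36) and KRT20 (an intestinal keratin, 3.21). Their adjusted p values ran from 2.28e-05 for FXYD3 to 0.00106 for IFI27.

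The largest falls were mostly of genes that dividing cells need for mitosis. CDC20, the activator of the anaphase-promoting complex, had 2.92 and 5.27 TPM in OE doxorubicin, against 114 and 145 TPM in OE control, a difference of -4.71 ± 0.46 (limma adjusted p = 9.04e-05). UBE2C, the ubiquitin-conjugating enzyme of that complex, had 1.97 and 1.92 TPM with doxorubicin, against 39.6 and 58.3 TPM in control (-4.06 ± 0.47). Further members of this group of 12 serve mitosis or chromatin: HMGB2 (a DNA-bending chromatin protein, -3.85), KIF20A (-3.83), the survivin gene BIRC5 (-3.69), NEK2 (-3.65), CCNB2 (cyclin B2, -3.62), DLGAP5 (-3.62) and ANLN (-3.60). RRM2, the ribonucleotide reductase subunit that supplies DNA synthesis, stood at 0.989 and 0.645 TPM with doxorubicin, against 17.6 and 24.2 TPM in control (-3.58). The remaining 2 were the long non-coding LINC00659 (-3.88) and TMSB15A (-3.76), which encodes an actin-binding thymosin.

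**Figure D1:**
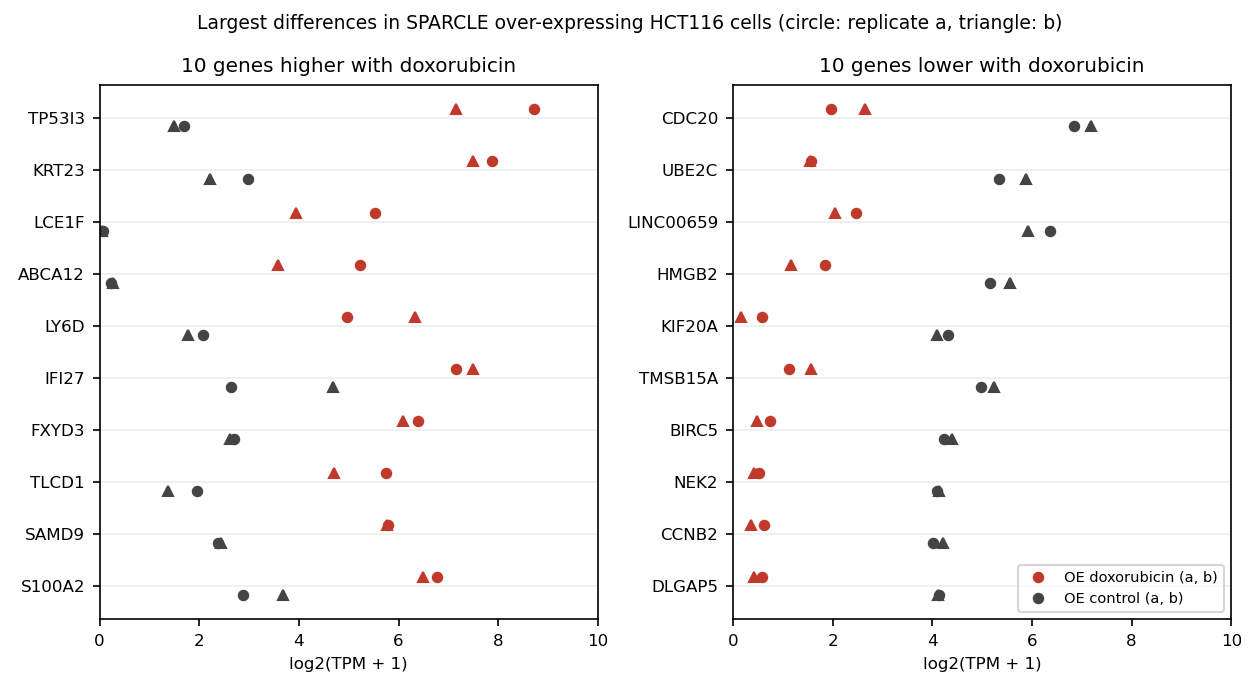
Level of the 10 genes with the largest differences in each direction, as log2(TPM + 1), in the OE doxorubicin (red) and OE control (dark grey) libraries; circles are replicate a and triangles replicate b. The doxorubicin points lie right of the control points for the 10 genes on the left panel and left of them for the 10 on the right. They do not overlap. The rule that picked these genes required both. LCE1F, with 0 control reads, is drawn at the small value the deposited file lists for it. The doxorubicin replicates of TP53I3 lie at 420.1 and 142 TPM, far above 2.22 and 1.82 TPM in control.

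Most p53 targets moved upward. Of 42 p53 target genes tested, 27 rose and 0 fell, with a median difference of 1.27 against 0.11 over all genes. CDKN1A, which encodes the cell cycle inhibitor p21, had 1038 and 544 TPM in OE doxorubicin, against 108 and 84.6 TPM in OE control (2.96 ± 0.35, limma adjusted p = 0.000249). MDM2, the ubiquitin ligase that degrades p53, had 244 and 137 TPM with doxorubicin, against 21.9 and 22.2 TPM in control (2.99 ± 0.26). RRM2B, the p53-induced counterpart of RRM2, had 172 and 118 TPM with doxorubicin, against 34.3 and 38.6 TPM in control (1.94 ± 0.26). RRM2 and RRM2B thus moved in opposite directions within the same enzyme. Not all targets moved: BBC3, the death gene PUMA, named after its values were seen, had 29.4 and 9.99 TPM with doxorubicin, against 16.87 and 17.005 TPM in control, a difference of 0.03 ± 0.49. The summed level of the 42 genes was 4837 and 2488 TPM with doxorubicin, against 1299 and 1236 TPM in control. The count of risen targets was 14 without OE control replicate b and 13 without OE doxorubicin replicate a, with a median of 0.91 in the second case.

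Among mitosis genes the fall was close to complete. Of 45 tested, 43 fell and 0 rose, with a median of -2.22, and the summed level was 140.3 and 100.1 TPM in OE doxorubicin, against 730.1 and 837.1 TPM in OE control. The 4 members with the smallest adjusted p were NUSAP1, a spindle protein, and the motor and spindle genes KIF20A, KIF2C and DLGAP5. NUSAP1 had 2.86 and 1.84 TPM with doxorubicin, against 36.8 and 35.6 TPM in control (-3.49 ± 0.26, limma adjusted p = 2.28e-05). The exceptions were PTTG1 and CDC25B. PTTG1, the securin gene, had 26.6 and 9.93 TPM with doxorubicin, against 36.5 and 45.3 TPM in control (adjusted p = 0.0973). CDC25B, a phosphatase that starts mitosis, had 33.4 and 24.4 TPM with doxorubicin, against 26.4 and 23.7 TPM in control (adjusted p = 0.604). The count stayed between 40 and 43 without any one of the 4 OE libraries.

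The DREAM complex is known to act through elements that many, but not all, promoters of mitosis genes hold. Shown from RefSeq on GRCh38.p14 are 3 promoters of strongly fallen genes, picked because they hold both elements, and that of KIF20A. KIF20A fell more than CCNB2 and DLGAP5 and does not hold TTTGAA, the form of the CHR element searched for, in this window. Other forms were not searched for, so the element may still be present. Each line runs 5′ to 3′ on the gene's strand, from 250 bases before to 50 after its start; capitals mark the CHR element TTTGAA and the CCAAT box, read on either strand (TTCAAA and ATTGG in reverse). CDC20 lies at chr1:43358731-43359030 (+ strand), CCNB2 at chr15:59104896-59105195 (+ strand), DLGAP5 at chr14:55191536-55191835 (- strand) and KIF20A at chr5:138178862-138179161 (+ strand).
CDC20: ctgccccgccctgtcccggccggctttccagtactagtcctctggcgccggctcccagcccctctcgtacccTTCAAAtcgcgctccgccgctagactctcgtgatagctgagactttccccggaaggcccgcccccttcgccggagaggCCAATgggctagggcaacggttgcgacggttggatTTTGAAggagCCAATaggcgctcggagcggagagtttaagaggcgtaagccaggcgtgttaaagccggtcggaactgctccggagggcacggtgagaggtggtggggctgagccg
CCNB2: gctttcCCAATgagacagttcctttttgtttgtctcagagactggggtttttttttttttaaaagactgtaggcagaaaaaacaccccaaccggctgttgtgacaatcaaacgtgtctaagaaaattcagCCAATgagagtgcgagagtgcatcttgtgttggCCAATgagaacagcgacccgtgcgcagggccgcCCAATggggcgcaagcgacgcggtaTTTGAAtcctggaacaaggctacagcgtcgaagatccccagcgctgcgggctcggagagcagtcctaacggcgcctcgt
DLGAP5: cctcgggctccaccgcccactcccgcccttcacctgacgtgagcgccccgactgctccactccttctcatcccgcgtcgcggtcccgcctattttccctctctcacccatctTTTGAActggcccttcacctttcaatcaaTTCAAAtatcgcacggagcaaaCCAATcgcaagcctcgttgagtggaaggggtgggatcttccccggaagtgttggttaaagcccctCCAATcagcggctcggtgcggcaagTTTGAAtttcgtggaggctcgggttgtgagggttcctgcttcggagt
KIF20A: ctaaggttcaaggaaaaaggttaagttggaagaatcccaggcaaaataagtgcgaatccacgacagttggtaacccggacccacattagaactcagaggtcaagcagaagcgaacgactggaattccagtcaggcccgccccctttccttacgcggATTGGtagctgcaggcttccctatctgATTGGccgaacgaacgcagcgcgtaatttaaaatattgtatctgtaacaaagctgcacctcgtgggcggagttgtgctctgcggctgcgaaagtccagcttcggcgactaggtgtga
CDC20 has a CHR element at -65, counted from the start site, just before a CCAAT box at -55. CCNB2 has a CHR element at -29 and CCAAT boxes at -244, -120, -87 and -54. KIF20A has CCAAT boxes at -94 and -67 and no TTTGAA. NEK2 likewise has CCAAT boxes and no TTTGAA, while ANLN has CHR elements and no CCAAT box. Over the 38 mitosis genes with a promoter in the table, 22 (57.9%) held TTTGAA and 29 (76.3%) held CCAAT, while the shares over all 35116 promoters were 15.2% and 34.6%. Of 36 replication gene promoters, 1 (2.8%) held TTTGAA and 20 (55.6%) held CCAAT. Of 35 p53 target promoters, 1 (2.9%) held TTTGAA and 13 (37.1%) held CCAAT. These are matches of letters and do not show binding.

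Genes of DNA replication were lower in part. Of 44 tested, 22 fell and 1 rose, with a median of -0.76. ORC1, the largest subunit of the origin recognition complex, had 0.804 and 0.465 TPM in OE doxorubicin, against 5.55 and 6.37 TPM in OE control (-2.10 ± 0.30, limma adjusted p = 0.000797). CDC6, which loads the replicative helicase, had 2.42 and 2.23 TPM with doxorubicin, against 8.10 and 10.2 TPM in control (adjusted p = 0.00166). TK1, thymidine kinase, fell as well (-1.56), along with RRM2. The gene that rose was PCNA, the sliding clamp and a known p53 target, with 316 and 138 TPM with doxorubicin, against 73.0 and 91.1 TPM in control (1.34 ± 0.44, adjusted p = 0.0431). The PCNA call was lost when OE control replicate a, OE control replicate b or OE doxorubicin replicate a was left out, with 0 replication genes risen in each case. The fallen numbered 13 without OE control replicate a and 8 without OE control replicate b.

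Repair by homologous recombination and the Fanconi pathway changed in both directions. Of 35 genes, 14 fell and 4 rose, with a median of -0.58. MND1, a recombination cofactor, had 0.603 and 0.460 TPM in OE doxorubicin, against 5.80 and 6.37 TPM in OE control (-2.21 ± 0.29). BARD1, the partner of BRCA1 (-1.58 ± 0.24), the nuclease subunit gene EME1 (-1.68 ± 0.27) and the helicase gene BLM (-1.32 ± 0.25) fell too. The 4 that rose were PALB2, RAD51C, FANCF and RMI2. Without OE control replicate b, 4 genes fell and 1 rose; 2 rose without OE control replicate a, and 1 when OE doxorubicin replicate a was left out. Of 27 damage sensors and checkpoint kinases, 2 rose and 3 fell (median -0.11), shares near those of all genes. ATRIP, the ATR-interacting protein, was one of those that rose (1.12 ± 0.34), and the claspin gene CLSPN fell (-1.32 ± 0.25). The ATRIP call was lost when OE control replicate a, OE control replicate b or OE doxorubicin replicate a was left out, with a difference of 0.71 in the last case, and that of CLSPN without OE control replicate b. The median of these 27 genes was 0.02 without OE doxorubicin replicate b.

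Chromatin genes were mostly lower where called. Of 41 replication-dependent histones tested, of 62 in the list, 9 fell and 1 rose, with a median of -0.36. HIST1H4D had 50.04 and 72.1 TPM in OE doxorubicin, against 209 and 200.4 TPM in OE control (-1.75 ± 0.25). Of the histones, 3 fell without OE control replicate a, 4 without OE doxorubicin replicate a and 14 with a replicate block. Among 15 lamin and HMG genes 6 fell and 1 rose. LMNB1, the lamin B1 gene of the nuclear envelope, had 3.23 and 2.18 TPM with doxorubicin, against 11.985 and 9.25 TPM in control (-1.65 ± 0.27). HMGA2, an architectural chromatin protein, was the one that rose, with 20.9 and 13.5 TPM with doxorubicin, against 2.99 and 2.38 TPM in control (2.28 ± 0.33).

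Among the drug's own target and exporters, single genes changed too. TOP2A, the topoisomerase II isoform of dividing cells, had 1.96 and 1.36 TPM in OE doxorubicin, against 25.1 and 30.2 TPM in OE control (-3.43 ± 0.35, limma adjusted p = 0.00011). ABCC2, a pump for conjugated drugs, had 241 and 136 TPM with doxorubicin, against 23.6 and 17.4 TPM in control (3.10 ± 0.33), and its relative ABCC3 rose by 1.63 ± 0.31. ABCB1, the P-glycoprotein gene whose product exports doxorubicin, had 0.609 and 0.237 TPM with the drug, against 2.41 and 2.24 TPM in control (-1.24 ± 0.24). Of 19 topoisomerase and anthracycline-handling genes, 3 rose and 3 fell in all, 15.8% each way. Over all genes 12.4% rose and 10.6% fell.

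**Figure D2:**
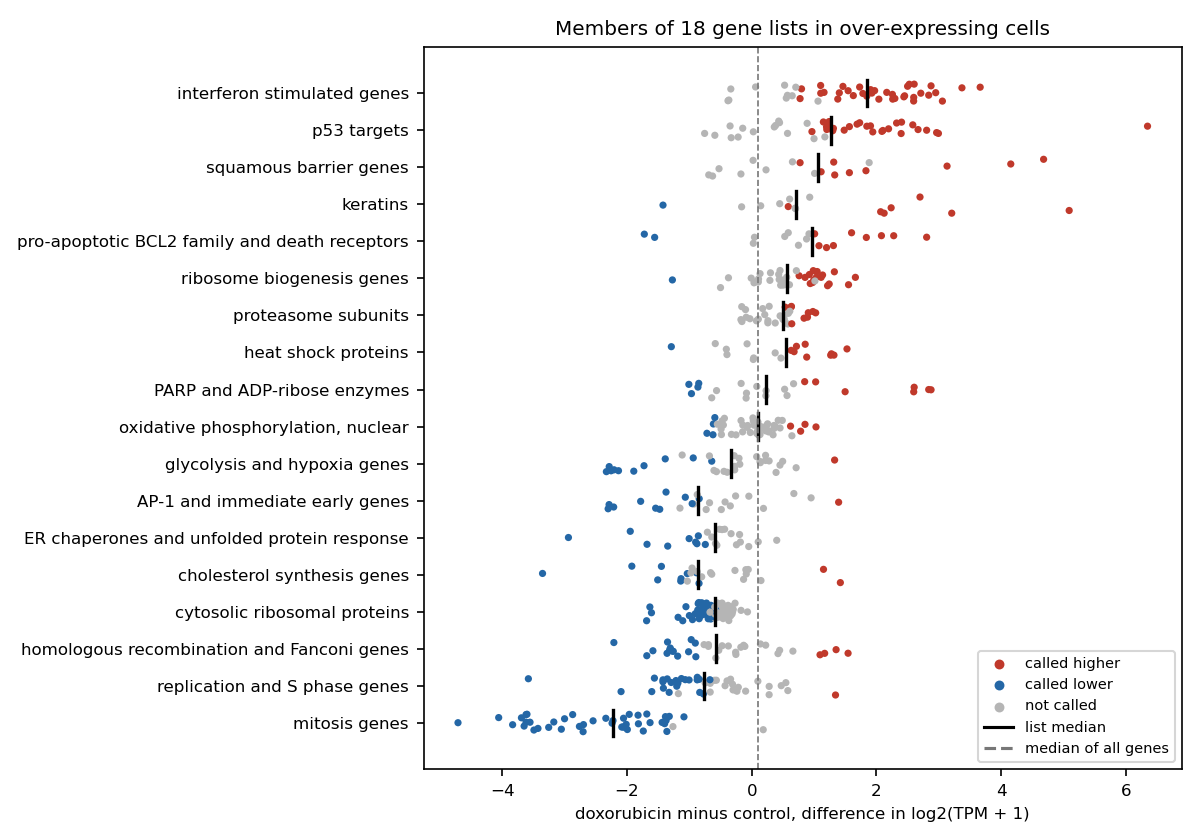
Difference of each tested member of 18 gene lists in OE cells, doxorubicin minus control in log2(TPM + 1); red and blue points were called higher and lower, grey points were not called, black bars are list medians and the dashed line is the median of all genes, 0.11. Interferon genes (median 1.85) and p53 targets (1.27) lie to the right, and mitosis genes (-2.22) to the left.

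Most interferon-stimulated genes rose. Of 45 tested, 35 rose and 0 fell, with a median of 1.85, and their summed level was 2552 and 2486 TPM in OE doxorubicin, against 845.6 and 1034 TPM in OE control. OAS1, which makes the activator of the antiviral RNase L, had 11.3 and 11.9 TPM with doxorubicin, against 0.394 and 0.909 TPM in control (2.95 ± 0.29, limma adjusted p = 9.16e-05). SAMD9, an antiviral factor, had 54.4 and 53.3 TPM with doxorubicin, against 4.18 and 4.42 TPM in control (3.37 ± 0.30). IFI35 had 17.1 and 15.8 TPM with doxorubicin, against 2.31 and 2.13 TPM in control (2.44 ± 0.26). The doxorubicin replicates of these 3 genes lay close together, unlike those of TP53I3. IFI27 had 140.4 and 180.4 TPM with doxorubicin, against 5.21 and 24.7 TPM in control, so its control replicates lay far apart. The count of risen members ran from 26 to 36 without any one of the 4 OE libraries.

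Interferon-induced promoters are known for the response element whose core is GAAANNGAA, and it is printed here in capitals, on either strand. Of the 4 interferon genes with the smallest adjusted p, SAMD9 and PARP12 hold this exact core and OAS1 and IFI35 do not. Forms with another spacing, such as gaaacgaaa in the OAS1 promoter, were not searched for, so the element may still be present. The promoters of SAMD9, PARP12 and OAS1 are shown, again from RefSeq on GRCh38.p14, 5′ to 3′. SAMD9 lies at chr7:93117930-93118229 (- strand), PARP12 at chr7:140062902-140063201 (- strand) and OAS1 at chr12:112906712-112907011 (+ strand).
SAMD9: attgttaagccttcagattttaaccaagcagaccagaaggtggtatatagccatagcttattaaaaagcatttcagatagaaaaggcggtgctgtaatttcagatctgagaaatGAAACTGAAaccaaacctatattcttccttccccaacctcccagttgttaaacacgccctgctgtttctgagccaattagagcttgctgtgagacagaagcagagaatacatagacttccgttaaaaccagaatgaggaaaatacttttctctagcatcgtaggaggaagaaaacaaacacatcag
PARP12: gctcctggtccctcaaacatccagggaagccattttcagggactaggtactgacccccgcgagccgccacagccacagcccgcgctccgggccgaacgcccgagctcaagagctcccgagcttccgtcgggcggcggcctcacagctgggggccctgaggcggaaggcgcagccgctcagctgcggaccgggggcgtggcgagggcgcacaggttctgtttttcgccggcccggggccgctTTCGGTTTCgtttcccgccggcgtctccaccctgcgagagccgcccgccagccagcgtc
OAS1: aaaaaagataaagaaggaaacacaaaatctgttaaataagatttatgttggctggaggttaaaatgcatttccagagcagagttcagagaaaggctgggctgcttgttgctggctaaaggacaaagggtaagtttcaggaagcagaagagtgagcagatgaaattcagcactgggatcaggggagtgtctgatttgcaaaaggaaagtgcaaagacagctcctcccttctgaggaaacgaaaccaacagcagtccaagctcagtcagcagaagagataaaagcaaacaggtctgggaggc
The core stands at -136 in SAMD9 and at -9 in PARP12, there in reverse. Of the 36 interferon genes with a promoter in the table, 24 (66.7%) held the core, while 8.1% of all promoters did. Of 35 p53 target promoters 1 (2.9%) held it, of 38 mitosis promoters 3 (7.9%), and of 60 cytosolic ribosomal protein promoters 11 (18.3%).

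Antigen presentation through MHC class I was mixed. Of 16 genes, 6 rose and 3 fell, with a median of 0.08. TAP1, a subunit of the peptide transporter, had 52.0 and 25.2 TPM in OE doxorubicin, against 8.54 and 7.53 TPM in OE control (2.05 ± 0.38). PSMB10, an immunoproteasome subunit, had 34.7 and 20.04 TPM with doxorubicin, against 4.55 and 6.05 TPM in control (2.13 ± 0.34). TAP2 rose by 1.45 ± 0.26. Without OE control replicate b or OE doxorubicin replicate a 3 rose, and the median was -0.04 in the second case.

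Of the ADP-ribosylation enzymes, PARP9, PARP10, PARP12 and PARP14 rose and PARP1 fell. PARP1, the main enzyme of ADP-ribose chains at DNA breaks, had 24.1 and 18.7 TPM in OE doxorubicin, against 47.7 and 39.9 TPM in OE control (-1.01 ± 0.22, limma adjusted p = 0.00772). Leaving out OE control replicate a ended that call. PARP9, whose product works with the ubiquitin ligase DTX3L, had 14.6 and 13.8 TPM with doxorubicin, against 1.10 and 1.04 TPM in control (2.88 ± 0.33). PARP14, a mono-ADP-ribosyltransferase, had 29.3 and 16.4 TPM with doxorubicin, against 2.58 and 1.89 TPM in control (2.84 ± 0.36). PARP12 rose by 2.61 ± 0.29 and PARP10 by 2.60 ± 0.50. These 4 genes are members of the interferon list as well. Over the whole list of 22 genes, 7 rose and 4 fell, with a median of 0.23; 4 rose without OE control replicate b or OE doxorubicin replicate a. RNA levels say nothing of PARP-1 protein or its cleavage.

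Several death genes rose. Of 18 genes of the pro-apoptotic BCL2 family and the death receptors, 9 rose and 2 fell, with a median of 0.96. FAS, a death receptor and p53 target, had 28.1 and 11.6 TPM in OE doxorubicin, against 1.82 and 1.66 TPM in OE control (2.81 ± 0.48, limma adjusted p = 0.00215). BID, which links death receptors to mitochondria, had 18.4 and 13.1 TPM with doxorubicin, against 5.04 and 3.94 TPM in control (adjusted p = 0.00255). TNFRSF10D, a decoy receptor for TRAIL, fell, with 14.4 and 16.4 TPM with doxorubicin, against 65.7 and 42.7 TPM in control (-1.72 ± 0.26), and BMF, a BH3-only gene, fell by 1.56 ± 0.26. TNFRSF10C, another TRAIL decoy receptor, was among the 9 that rose (2.28), so the decoys moved in opposite directions. Of 14 caspases and substrate nucleases, 5 rose and 0 fell, among them the initiator CASP8 (1.62 ± 0.32). Of 12 inhibitors, BCL2L1, the BCL-XL gene, rose (0.73 ± 0.24, adjusted p = 0.0401) and BIRC3 fell (-1.08 ± 0.32). The rises were sensitive to 1 library: 2 of the 18 death genes rose without OE control replicate b or without OE doxorubicin replicate a, and 0 or 1 of the 14 caspase genes, of which 2 rose without OE control replicate a. CASP8 lost its call without OE control replicate b. BCL2L1 lost its call with median-ratio scaling, without the trend and when OE control replicate a, OE control replicate b or OE doxorubicin replicate a was left out. BIRC3 lost its call when OE control replicate a, OE control replicate b or OE doxorubicin replicate b was left out.

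Some keratins and genes of the squamous skin barrier rose in these colon cells. Of 15 keratins, 7 rose and 1 fell (median 0.70). Of 18 squamous barrier genes tested, of 38 in the list, 9 rose and 0 fell (median 1.06). Genes were tested at 1 TPM or more in 2 libraries, which doxorubicin libraries alone can meet. Members near 0 in control, such as LCE1F and ABCA12, could therefore only rise. KRT20 had 22.4 and 15.2 TPM in OE doxorubicin, against 1.24 and 0.986 TPM in OE control, and KRT17, a keratin of stressed epithelium, rose by 2.12 ± 0.33. ABCA12 had 36.6 and 10.9 TPM with doxorubicin, against 0.171 and 0.209 TPM in control (4.15 ± 0.61, limma adjusted p = 0.000948). KLK6, a kallikrein protease, had 31.9 and 46.2 TPM with doxorubicin, against 9.15 and 11.1 TPM in control (1.83 ± 0.32). KRT10, a keratin of the upper epidermis, fell by 1.42 ± 0.28 and was the one keratin that did. Without OE doxorubicin replicate a 4 keratins rose, and without OE control replicate b 5 squamous genes did.

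The label of a colon epithelial line was met by epithelial genes and only in part by intestinal ones. EPCAM had 145 and 90.2 TPM in OE doxorubicin, against 116 and 117 TPM in OE control, and CDH1, the E-cadherin gene, had 40.6 and 28.0 TPM, against 33.7 and 34.3 TPM; both were named after their values were seen. Of 22 intestinal markers, 8 were among the deposited genes and 6 were tested, of which KRT20 and CA2, carbonic anhydrase, rose; the CA2 call was lost when OE control replicate b or OE doxorubicin replicate a was left out. Markers of other cell types were few. Of 22 leukocyte markers 5 were tested and 1 fell, of 18 mesenchymal markers 8 were tested with 1 higher and 3 lower, and of 15 kidney and neural markers 4 were tested with 1 higher and 1 lower. Their summed levels were 21.8 and 23.8 TPM in OE doxorubicin, against 51.5 and 46.7 TPM in OE control, for leukocytes. For mesenchymal markers they were 26.9 and 16.9 TPM, against 41.4 and 41.0 TPM, and for kidney and neural markers 43.2 and 35.3 TPM, against 50.55 and 37.1 TPM. Their part in the results was not tested. SNAI1, a repressor of E-cadherin, had 4.81 and 5.57 TPM with doxorubicin, against 24.6 and 25.6 TPM in control (-2.08 ± 0.24). ACTA2 rose (1.83 ± 0.33), but its gene on chromosome 10, from 88935074 to 88991339 on the minus strand, overlaps FAS, from 88990582 on the plus strand, and their reads may not be told apart.

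The called ribosomal protein genes were all lower, and the called genes of ribosome assembly were higher apart from FBL. Of 75 cytosolic ribosomal protein genes, 37 fell and 0 rose, with a median of -0.59 and every difference below 0. RPL3, at the peptidyl transferase centre, had 148 and 186 TPM in OE doxorubicin, against 530 and 487 TPM in OE control (-1.61 ± 0.21, limma adjusted p = 0.00044), and RPL12 had 218 and 220.1 TPM, against 693 and 670.2 TPM (-1.63 ± 0.19). Of 39 ribosome biogenesis genes, 16 rose and 1 fell, with a median of 0.56. POLR1A, the catalytic subunit of RNA polymerase I, had 20.8 and 13.4 TPM with doxorubicin, against 5.95 and 4.24 TPM in control (1.55 ± 0.30). FBL, fibrillarin, which methylates ribosomal RNA, was the gene that fell (-1.27 ± 0.24). The fallen ribosomal protein genes numbered 10 or 9 when control replicate a or b of the OE cells was left out, 15 without OE doxorubicin replicate a and 22 with median-ratio scaling. The risen biogenesis genes numbered 1 without OE control replicate b, and leaving out OE doxorubicin replicate a gave 3; POLR1A was not called in the first case.

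Chaperone lists differed in the direction of their calls. Of 23 genes of the endoplasmic reticulum stress response 9 fell and 0 rose (median -0.58). HSPA5, the main chaperone of that compartment, had 71.1 and 61.2 TPM in OE doxorubicin, against 455 and 578 TPM in OE control (-2.94 ± 0.44, limma adjusted p = 0.00099). Of 18 cytosolic and mitochondrial heat shock genes 9 rose and 1 fell (median 0.55). HSPA8, the constitutive HSC70 gene, had 839 and 702 TPM with doxorubicin, against 342 and 296 TPM in control (1.27 ± 0.20). DNAJB1, a stress-induced co-chaperone, fell (-1.29 ± 0.23). Of the first group 4 fell without OE control replicate a and 3 without replicate b, and of the second 5 and 2 rose, with 2 without OE doxorubicin replicate a. Of 31 proteasome subunits 9 rose and 0 fell (median 0.50), with PSMB7 at 0.91 ± 0.19, but 14 rose with a replicate block and 1 to 3 without OE control replicate a, OE control replicate b or OE doxorubicin replicate a. PSMB7 lost its call without OE control replicate b.

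Among metabolic lists, the calls in cholesterol synthesis and glycolysis were mostly lower, and the others were mixed or had few calls. Of 24 cholesterol synthesis genes 9 fell and 2 rose (median -0.86). INSIG1, a feedback inhibitor that retains the sterol sensor, had 10.1 and 6.87 TPM in OE doxorubicin, against 86.0 and 104 TPM in OE control (-3.35 ± 0.38, limma adjusted p = 0.000206); 4 cholesterol genes fell without OE control replicate b. Of 32 glycolysis and hypoxia genes 10 fell and 1 rose (median -0.34). GAPDH had 1504 and 1364 TPM with doxorubicin, against 5952 and 4743 TPM in control (-1.89 ± 0.27), ALDOA, aldolase, had 161 and 261 TPM, against 1031 and 794 TPM (-2.14 ± 0.27), and the hypoxia-induced gene NDRG1 fell by 2.33 ± 0.33. Of 47 nuclear genes of oxidative phosphorylation 4 rose and 4 fell, and of 13 mitochondrially encoded mRNAs 0 passed the test by limma. Of 34 lysosome and autophagy genes 5 rose and 7 fell, such as the cholesterol carrier NPC2 (-1.58 ± 0.22). Without OE control replicate a 1 rose and 4 fell, without OE control replicate b 1 rose and 2 fell, and without OE doxorubicin replicate a 1 rose.

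Stress and signalling lists were mixed. Of 21 ATF4 and CHOP targets 6 rose and 4 fell; within serine synthesis PSAT1 rose by 1.40 ± 0.22 and PHGDH fell by 1.73 ± 0.24. Of 21 NRF2 targets 5 rose and 1 fell. The one that fell was FTL, the ferritin light chain that stores iron, with 1392 and 1304 TPM in OE doxorubicin, against 5394 and 6228 TPM in OE control (-2.10 ± 0.28), while TXN, thioredoxin, rose by 1.20 ± 0.22. Of 15 NF-kB feedback genes 4 rose and 5 fell, and TNFAIP2 (2.62 ± 0.45) and ICAM1, an adhesion molecule (2.06 ± 0.34), were among the risen. Of 21 secreted senescence factors 5 rose and 3 fell; the cytokine gene LIF had 47.1 and 22.4 TPM with doxorubicin, against 8.31 and 5.25 TPM in control (2.14 ± 0.47), and CSF1 rose by 2.17 ± 0.47. Of 24 immediate early genes, 10 fell and 1 rose (median -0.86); EGR1 had 7.50 and 8.49 TPM with doxorubicin, against 40.0 and 41.3 TPM in control (-2.21 ± 0.26), and KLF2 fell by 2.30 ± 0.30. Of 25 snoRNA host and p53-linked long non-coding RNAs 6 rose and 4 fell. PINCR, a p53-induced long non-coding RNA, had 10.4 and 3.17 TPM with doxorubicin, against 0.0071 and 0.0711 TPM in control, and PURPL, another, had 44.8 and 19.5 TPM, against 5.39 and 9.29 TPM. These counts were small and moved with single libraries. LIF lost its call when OE control replicate b or OE doxorubicin replicate a was left out, CSF1 in the second of these cases (1.41) and PURPL when OE control replicate a or OE doxorubicin replicate a was. The risen ATF4 targets numbered 3, 2 and 2 without OE control replicate a, OE control replicate b and OE doxorubicin replicate a in that order, and the risen senescence factors 3, 1 and 0. NF-kB genes that fell numbered 1, 0 and 1 without OE control replicate a, OE control replicate b and OE doxorubicin replicate b. Risen NRF2 targets numbered 3 without OE control replicate b or OE doxorubicin replicate a and 9 without OE doxorubicin replicate b, and 3 of the long non-coding RNAs rose without OE doxorubicin replicate a.

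The response of OE cells was then set beside those of WT and KO cells, each measured against its own control libraries. With doxorubicin, 2994 genes rose (19.6%) and 1920 fell (12.6%) in WT cells, and 1510 rose (9.9%) and 2185 fell (14.3%) in KO cells. Of the genes that rose in OE cells, 87.2% also rose in WT cells, which were 55.2% of those risen in WT; of those that fell in OE cells, 82.0% also fell in WT cells, 69.0% of those fallen in WT. With KO cells the shares were 71.1% of the OE and 89.3% of the KO rises, and 91.2% of the OE and 67.4% of the KO falls. No gene was called in opposite directions. Across the 15256 genes, which are not independent replicates, Pearson's r of the responses was 0.92 between OE and WT and 0.954 between OE and KO. A set of 246 genes was called in OE cells alone, but 244 of them had the same sign in WT and KO, and their smallest adjusted p for a difference in response was 1.

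The difference between responses was tested directly. Between OE and WT cells limma called 1 gene (0.00655%) and voom none, while 150 genes had an unadjusted limma p below 0.05. Between OE and KO cells limma called 0 genes (0.0%) and voom 0, while 50 had an unadjusted limma p below 0.05. Evenly spread p-values would give 763 without any difference. Both counts lie under that, so the p-values ran high here and the test could miss differences. A lack of calls is no proof of equal responses. The called gene was PDE4B, a phosphodiesterase that breaks down cyclic AMP, and its response was lower in OE than in WT cells. PDE4B had 11 and 8 reads in OE doxorubicin, against 2 and 1 in OE control. In WT cells it had 3170 and 3399 reads with doxorubicin, against 156 and 143 in control, and in KO cells 15 and 7 reads with doxorubicin, against 3 and 5 in control. The OE minus WT difference of the responses was -3.10 ± 0.29 (limma adjusted p = 0.00131), and the call was lost with a pseudocount of 0.1 (adjusted p = 0.88) and with voom (1.0). Against KO cells the 3 genes with the smallest unadjusted p were SPARCLE (-1.04 ± 0.31), the 5S ribosomal RNA gene RNA5S9 (-2.90 ± 0.94) and the mitochondrial-type pseudogene MTCO2P12 (-3.06 ± 1.02), each with an adjusted p of 1. SPARCLE had 4 and 1 reads in KO doxorubicin and 0 in both KO control libraries. There log2(TPM + 1) holds any response near 0, so its value mostly restates the fall in OE cells.

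The responses of OE and WT cells are given here by list as a description, since the difference of a list was not tested. The interferon median was 1.85 in OE cells, 1.28 in WT and 1.74 in KO cells, with 35, 27 and 33 of 45 members risen. The OE minus WT difference had a median of 0.47, against -0.07 over all genes. An unadjusted limma p under 0.05 was met by 5 of the 45 members, against 150 of all 15256 genes. IFI27 rose by 3.66 in OE cells and differed by 1.16 in WT cells, a difference of 2.50 ± 0.78 (limma adjusted p = 1), and OAS1 by 2.95 and 1.28. LY6D, outside this list, showed 3.72 in OE, 1.08 in WT and 3.58 in KO cells. Keratins lay the other way, with medians of 0.70 in OE, 1.80 in WT and 0.79 in KO cells; the OE minus WT difference had a median of -0.87, and 7 of 15 members had an unadjusted p under 0.05. For p53 targets the medians were 1.27, 1.52 and 1.21, and for mitosis genes -2.22, -2.68 and -2.48, in OE, WT and KO cells in that order. Of the other lists, ATF4 and CHOP targets had 4 of 21 members with an unadjusted p under 0.05 (median difference 0.28), glycolysis and hypoxia genes 2 of 32 (-0.40) and ribosome biogenesis genes 0 of 39 (-0.33), with 16 biogenesis genes risen in OE and 27 in WT cells. No member of these 7 lists was called.

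**Figure D3:**
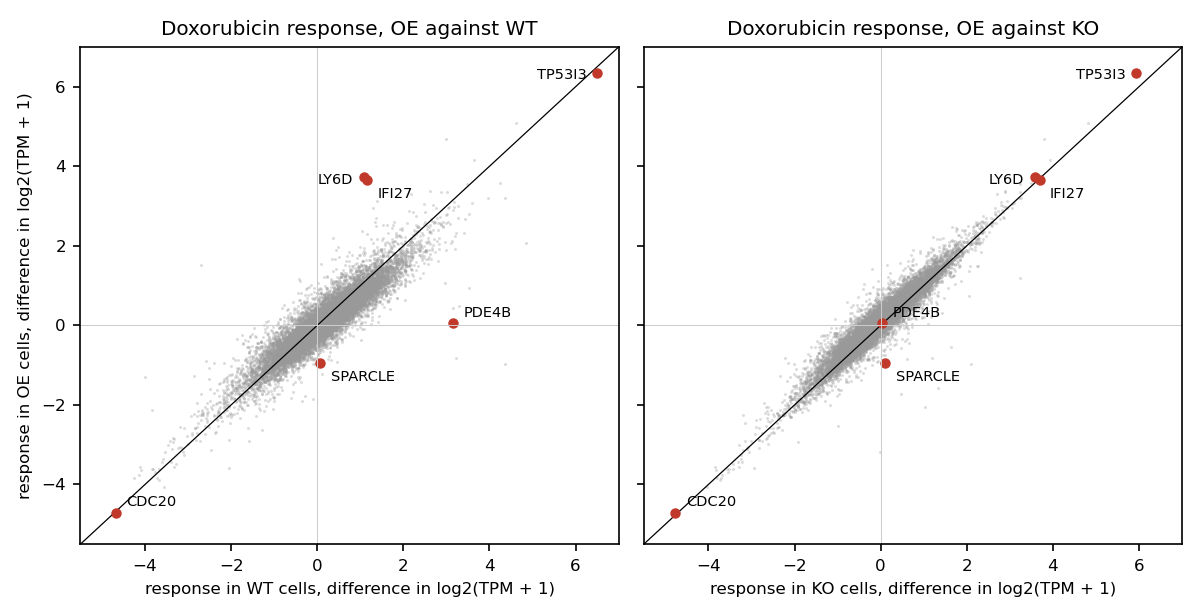
Response of each of 15256 genes to doxorubicin in OE cells (vertical axis) against that in WT (left) and KO cells (right), as differences in log2(TPM + 1); grey points are genes, red points are named genes and the line marks equal responses. PDE4B lies off the line against WT cells, at a difference of -3.10, and near it against KO cells; LY6D and IFI27 lie above the line against WT cells, where neither was called (adjusted p of 1), and on it against KO cells.

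The 2 OE doxorubicin libraries differed from each other more than the 2 OE control libraries did. Between doxorubicin replicates a and b, 1059 genes (6.9%) lay at least 1 log2 unit apart, against 172 (1.1%) between the control replicates. The p53 targets were higher in replicate a by a median of 0.97, against 0.45 over all genes. In KO doxorubicin the same gap was 1.01, against 0.26 over all genes, and in WT doxorubicin 0.03, against 0.23. Gene by gene, the gap between a and b in OE doxorubicin correlated with that in KO doxorubicin (r = 0.81 across genes) and less with that in OE control (0.21) or WT doxorubicin (0.16). Mitosis genes had a gap of 0.22 and interferon genes of 0.34, both under that of all genes, and glycolysis and hypoxia genes were higher in replicate b (-0.18). What sets the 2 replicates apart was not tested. Without doxorubicin replicate a, 424 genes rose and 1312 fell, and without replicate b 2873 rose and 914 fell.

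**Figure D4:**
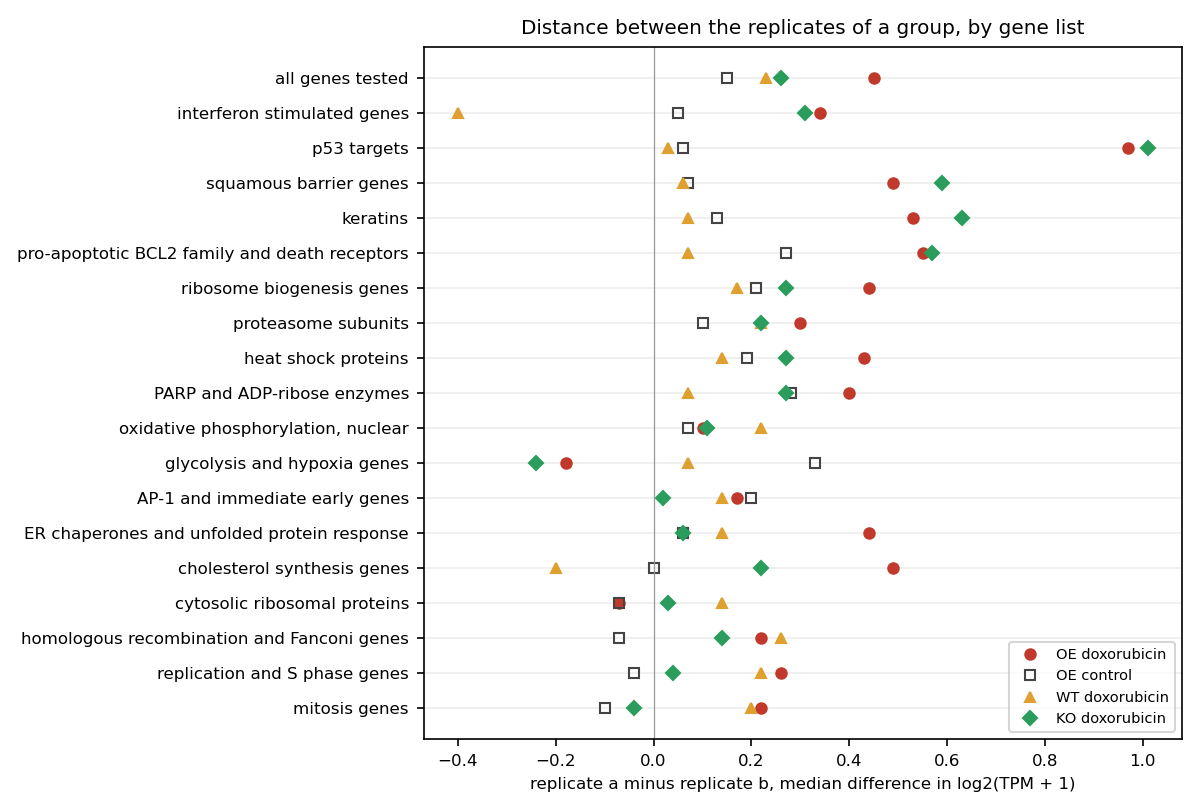
Median gap between replicate a and replicate b, in log2(TPM + 1), for 18 gene lists and all genes, in OE doxorubicin (red circles), OE control (open squares), WT doxorubicin (yellow triangles) and KO doxorubicin (green diamonds). The p53 targets lie at 0.97 in OE and 1.01 in KO doxorubicin, against 0.06 in OE control and 0.03 in WT doxorubicin.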

How the data were processed

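Total RNA of 12 HCT116 libraries was analysed, 4 of them of OE cells. The authors deposited log2 TPM of 16676 genes, per the file headers; the powers of 2 of these values have the same sum in each library, as TPM do. Per the submitters' processing notes, edgeR 3.12.1 in R 3.3.3, featureCounts, HISAT2 2.0.4 and SAMtools 1.7 were used with hg38; annotation, strand setting and filter are not given in the sources used here.

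With GENCODE v29 exon lengths, the TPM of 15182 genes (91.7% of those matched) gave whole reads within 0.05 reads; a length was searched for 1494 others, SPARCLE among them. Reads per library ran from 12599392 to 30690664, and intervals and floors cover counting error only.

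Genes reaching 1 TPM in 2 or more libraries were fitted as log2(TPM + 1) in limma 3.58.1 (R 4.3.3), with 6 group means over 12 libraries and eBayes with trend (6 residual degrees of freedom). Calls needed an adjusted p (Benjamini-Hochberg) below 0.05. Alternatives covered pseudocount, filters, scaling, groups, trend, replicate block, voom on recovered reads and leaving out each library. The p-values measure the spread between the 2 replicates of a group, shared over the 6 groups and moderated across genes. They do not cover the spread between independently made OE lines. An exact permutation test of 2 against 2 cannot go below 0.333.

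The members and the 36 gene lists were chosen with earlier results of these data known. Named genes are the 12 largest called differences each way with a mean TPM of at least 5 and no overlap (no small RNA, pseudogene or clone name), the 4 list members with the smallest adjusted p, SPARCLE, CDKN1A, MDM2, TP53I3 and PARP1, and, per test of responses, the called genes or the 3 with the smallest p; PTTG1, CDC25B, PCNA, BBC3, EPCAM, CDH1, PALB2, RAD51C, FANCF, RMI2 and any other outside this rule were chosen after their values were seen. A few genes that this rule names are not reported here. No per-sample column lacked a sample.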

Additional observations from a re-analysis of the deposited data

Results flagged for a closer look

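One result was flagged because the effect of doxorubicin differed between 2 kinds of cells by a test of the difference itself. PDE4B responded less in OE than in WT cells by -3.1 log2 units, from 11 and 8 reads in OE doxorubicin against 2 and 1 in OE control, and 3170 and 3399 reads in WT doxorubicin against 156 and 143 in WT control. The 4 KO libraries had 3 to 15 reads, so the gene was low in both manipulated lines. PDE4B lay under 0.1 TPM in the OE libraries, where log2(TPM + 1) holds any response near 0 (0.05), so the value mostly restates the rise in WT cells (3.15). The call was lost with a pseudocount of 0.1 (limma adjusted p = 0.88) and by voom (1.0).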

How the results depend on the processing

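Depth limits genes under about 3 reads per library, and 2 replicates per group limit every test. The count of 3510 genes called between OE doxorubicin and OE control became 2316 under a mean TPM filter of 5 and 2239 with a minimum of 1 log2 unit. It was 5938 after median-ratio scaling, 6006 when small RNA genes were left out and 6009 by voom on recovered reads. Leaving out 1 OE library gave 944 to 3787, the lowest without OE control replicate b. With a replicate block it was 4694; letters a and b pair the samples only in part (r of the gaps from -0.39 between WT and KO control to 0.81 between OE and KO doxorubicin). The scalings moved the median of all genes to -0.01 (median ratio) and 0.21 (without small RNA genes). SPARCLE differed by -0.98 with a pseudocount of 0.1 and by -0.94 under the mean TPM filter, without a call; leaving out 1 OE library gave -0.96 to -0.91. The OE against WT test called 0 genes with a pseudocount of 0.1, under the mean TPM filter (which left PDE4B untested) and with voom, 6 with only the groups compared, and 1 when any of the 8 libraries was left out. The OE against KO test called 0 in each alternative. Of 142 called genes named in OE cells, none reversed in any alternative; TUBB3, not called, ran from -0.32 to 0.11 with 1 OE library left out. The causes were not tested.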
